A study of Homo sapiens with 15 samples.

Results

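Ribosome biogenesis factors are the proteins that make ribosomes without becoming part of them. The set described here holds 49 of the 39133 genes in the deposited table of gene counts, found by their symbols: 3 RNA polymerase I subunits, 24 small subunit factors, 6 proteins of the box C/D and box H/ACA particles, 12 large subunit factors and 4 abundant or regulatory nucleolar proteins. Each symbol had 1 row, and all 49 genes passed the filter on low counts, with at least 75 counts in every library. They were measured in HepG2, a human hepatocellular carcinoma line, labelled wild type. The 15 libraries form 5 groups of 3: untreated control, palmitate, and palmitate with sodium butyrate at 0.5 mM (low), 1 mM (medium) or 1.5 mM (high). Palmitate is a saturated fatty acid used in the study to induce insulin resistance, and its concentration is labelled 200 mM, a unit that could not be checked here. Butyrate is a short-chain fatty acid that inhibits histone deacetylases. All 15 libraries are labelled as harvested at 48 h, while the series' design text also names a collection at 24 h. By their names, palmitate libraries had 48 h of palmitate, whereas butyrate libraries had 24 h of it and then 24 h with butyrate. No group had butyrate without palmitate, so butyrate and the shorter time on palmitate alone cannot be told apart in the comparisons with palmitate.

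Total counts ran from 35349827 to 61086976 per library. The libraries are called biological replicates of a single cell line. P-values set the differences between groups against the spread between libraries of a group. The palmitate libraries were the least alike: the median coefficient of variation of the 49 genes was 8.81% there against 3.43% in the control group. ALB, encoding albumin, stood at a mean of 1624 FPKM (fragments scaled by gene length and library depth) and AFP, encoding alpha-fetoprotein, at 1259.9 FPKM in the control group, as in hepatic cells, while TTR, another hepatic marker, was low at 6.53 FPKM. Of 10 markers of leukocytes, endothelium and stroma, PTPRC, CD3E, DCN and LUM had means of at most 0.0106 FPKM in the control, palmitate and high butyrate groups. CD68, VWF and COL1A2 had at most 0.133 FPKM there, CDH5 at most 0.283 FPKM, and PECAM1 and COL1A1 reached 1.51 and 1.96 FPKM with high butyrate, where PECAM1 was at 0.572 and COL1A1 at 0.0222 FPKM in control.

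A ribosome starts as one long precursor RNA, transcribed in the nucleolus by RNA polymerase I. The small subunit processome, built in blocks that include the UTP-A and UTP-B complexes, folds and cuts the part of the precursor that becomes the small subunit. Box C/D and box H/ACA particles methylate and pseudouridylate it, guided by small nucleolar RNAs, and a separate series of factors builds the large subunit. Dividing cells spend much of their transcription on this pathway, and MYC, a transcription factor that binds the E-box CACGTG, is known to activate many of its genes.

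The promoters hold this motif more often than most. RefSeq promoters on GRCh38.p14, from 250 bases before the start of the gene to 50 bases after it, were found for 42 of the 49 genes. The letters CACGTG, which read the same on both strands, occurred in 14 of the 42 (33.3%), against 7.4% of 27305 promoters of all genes and 11.0% of 6423 promoters of genes with an average log2 CPM (counts scaled to library depth) of at least 4. Of the 15 E-boxes, 12 lay within 50 bases of the start of the gene, and 28.6% of the 42 promoters had one there, against 2.9% of all promoters and 4.5% of those at that level. The ETS site CCGGAAG, searched on both strands, was in 33.3% of the 42 promoters, 10.7% of all and 21.7% at that level. Of the E-boxes, 0 shared a base with a match of the ETS site. The 42 promoters were also richer in G and C, with a median of 64.2% against 58.3% in all promoters. The part of this in the shares above was not tested. A match is a run of letters and not a measured binding site. Windows of 150 bases, 120 before the start of the gene and 30 from it, are shown for 4 genes with an E-box close to the start, because they span the responses below: UTP20 had the largest fall, WDR43 fell at every dose, UTP18 has 2 E-boxes, and FBL was not called at any dose against palmitate by the main test. Capitals mark the E-box.
UTP20, chr12:101279985-101280134, plus strand: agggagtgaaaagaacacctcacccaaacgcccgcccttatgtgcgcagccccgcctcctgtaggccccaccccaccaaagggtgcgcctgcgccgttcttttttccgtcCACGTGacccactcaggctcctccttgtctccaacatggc
WDR43, chr2:28894547-28894696, plus strand: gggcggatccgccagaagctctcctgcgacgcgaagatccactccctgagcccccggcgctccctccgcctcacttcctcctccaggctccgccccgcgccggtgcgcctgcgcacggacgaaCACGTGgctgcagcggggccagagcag
UTP18, chr17:51260426-51260575, plus strand: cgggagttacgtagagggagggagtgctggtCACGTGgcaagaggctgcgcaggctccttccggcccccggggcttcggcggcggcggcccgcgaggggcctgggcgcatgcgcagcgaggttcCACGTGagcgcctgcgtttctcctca
FBL, chr19:39846350-39846499, minus strand: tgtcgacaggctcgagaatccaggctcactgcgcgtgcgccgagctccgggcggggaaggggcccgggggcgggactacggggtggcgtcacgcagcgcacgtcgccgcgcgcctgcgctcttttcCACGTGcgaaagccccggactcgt

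Levels of the 49 genes spanned a wide range. Per length and library, control means ran from 0.718 FPKM for NOP2 to 206 FPKM for NCL, with a median of 14.7 FPKM, and NCL, NPM1, FBL, DDX21 and NOP56 were the 5 highest in that order. NCL (206 ± 5.05 FPKM, SD, n = 3) and NPM1 (205 ± 10.1 FPKM) did not differ beyond their spread. The fewest counts were those of NOP2, at 75 to 185 per library, so its changes are the least precise. Every other gene of the set had at least 347 counts in each library.

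In CPM scaled by TMM, the 49 genes together summed to 7614.8 to 7917 in the control libraries, 8323 to 9821 with palmitate, 7086 to 7675 with low, 6822 to 7673 with medium and 4644 to 4876 with high butyrate. Palmitate libraries lay above all others and high butyrate libraries below all others. Without NCL and NPM1, the most abundant pair, the sums were 4178 to 4311 in control, 4504 to 4907 with palmitate, 3875 to 4126 with low, 3807 to 4029 with medium and 2905 to 2947 with high butyrate, again with palmitate highest and high butyrate lowest. CPM are relative to all RNA counted, so a lower value cannot be told apart from more RNA of other genes, and fewer cells expressing a gene cannot be told apart from less RNA per cell. In raw counts the 49 genes took 0.752% to 0.796% of the control libraries, 0.822% to 0.91% of palmitate libraries and 0.496% to 0.502% of high butyrate libraries.

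**Figure D1:**
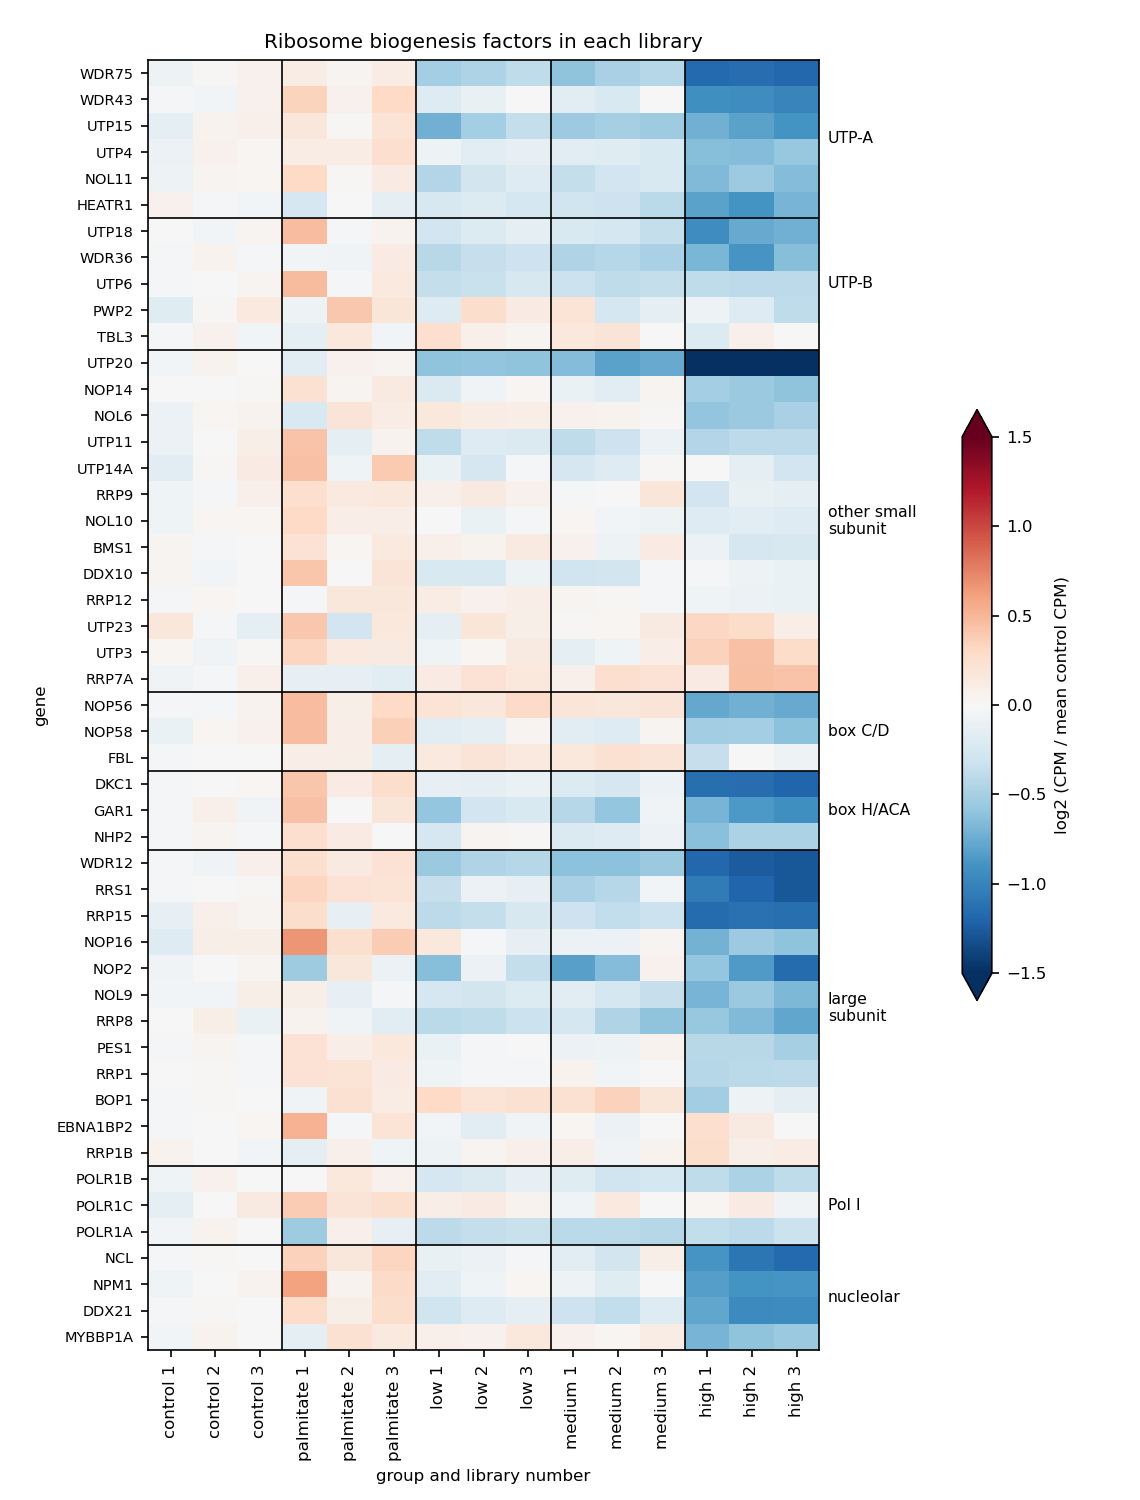
Level of each of the 49 genes (rows, grouped by role) in each of the 15 libraries (columns), as log2 of its CPM over the mean control CPM; red is above and blue below the control mean. The high butyrate columns are mostly blue, with UTP20 past the end of the scale at -1.5. RRP7A, UTP3, RRP1B and UTP23 are above the control mean in all 3 of these columns.

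With palmitate alone, no gene of the set passed the test. By edgeR's quasi-likelihood test with Benjamini-Hochberg adjustment over the 20309 genes tested, 0 of the 49 were called at an adjusted p under 0.05 against control, where 0.108% of all genes tested were called. Unadjusted p was under 0.05 for 21 of the 49, as for 14.2% of all genes and 20.3% of well expressed genes (log2 CPM of 4 or more). The point estimate was above 0 for 40 of them, with a median log2 change of 0.15 (range -0.17 to 0.44), where the median was 0.00 over all genes and 0.03 over well expressed genes. The count depended on the libraries and on the processing. Without palmitate library 2, 14 genes were higher and 1, POLR1A, was lower, and 3.75% of all genes and 8.48% of well expressed genes were higher. DESeq2 called 7 of the 49 higher, with 1.04% of all and 2.33% of well expressed genes. Without a filter on low counts edgeR called 8 higher, with 0.894% of all and 3.58% of well expressed genes, and the 6 libraries alone or FPKM values called 0.

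The smallest adjusted p with palmitate was that of NOP16, a large subunit factor known from yeast. NOP16 stood at 13.4, 16.3 and 16.2 CPM in control and 24.3, 18 and 19.9 with palmitate (log2 change 0.44, SE 0.105, adjusted p = 0.118). The groups did not overlap. DKC1, the pseudouridine synthase dyskerin, was at 150.4, 152 and 156 CPM in control and 203, 166 and 184 with palmitate (log2 change 0.27, SE 0.0671, adjusted p = 0.123). NOP56, a core protein of box C/D particles, was at 298, 299 and 315 CPM in control and 418, 322 and 375 with palmitate (log2 change 0.29, SE 0.0739, adjusted p = 0.128). For both, palmitate library 2 was the lowest of its group and still above every control library. Without it, the adjusted p was 0.00769 for NOP16, 0.00615 for DKC1 and 0.00319 for NOP56. In all, 17 of the 49 genes had all palmitate libraries above all control libraries, as had 8.55% of all genes and 13.8% of well expressed genes. RRP7A was the 1 gene with all of them below, as had 7.52% of all genes.

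With low butyrate a majority of the set was lower than with palmitate. Of the 49 genes, 30 (61.2%) were lower, 1 was higher and 18 were not called, where 24.0% of all genes tested were lower and 25.9% higher. Well expressed genes fell more often in general: of those at a log2 CPM of 4 or more, where 44 of the 49 lie, 43.6% were lower and 19.2% higher. The median log2 change was -0.27 in the set, against 0.02 over all genes and -0.13 at that level. No gene reached 2-fold. WDR12, which forms the PeBoW complex of the large subunit with PES1 and BOP1, fell 1.60-fold (log2 change -0.68, SE 0.0593, adjusted p = 6.76e-09). UTP15, of the UTP-A complex, fell 1.57-fold (log2 change -0.65, SE 0.0881, adjusted p = 2.93e-06), and UTP20 1.50-fold (log2 change -0.58, SE 0.0685, adjusted p = 4.85e-07). RRP7A, a small subunit factor, was the gene that rose, 1.23-fold (log2 change 0.30, SE 0.0799, adjusted p = 0.00338). The calls of EBNA1BP2, NOL9, NOL10 and NOP14 at low butyrate were each lost without at least 1 library (adjusted p from 0.0512 to 0.134). Library totals lost those of NOL9, NOL10, NOP14 and PES1, FPKM those of NOL9, NOP14 and RRP8, and the compared groups alone those of NOL10 and NOP14.

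Medium butyrate gave values close to those of low butyrate. Against palmitate, 35 genes (71.4%) were lower, 1 (RRP7A) was higher and 13 were not called, with 24.4% of all genes and 44.6% of genes at that level lower, and 27.1% and 20.3% higher. The median log2 change was -0.29, against 0.03 over all genes and -0.14 at that level. Leaving out at least 1 library lost the calls of EBNA1BP2, HEATR1, NOL10, NOP14, PES1, POLR1A, POLR1C, RRP1 and UTP3 (adjusted p from 0.05 to 0.359). Library totals lost 8 calls, those of HEATR1, NOL10, NOP14, PES1, POLR1A, POLR1C, RRP1 and UTP3. On FPKM 8 were lost with a pseudocount of 1, those of EBNA1BP2, HEATR1, NHP2, NOP14, POLR1A, POLR1C, RRP1 and UTP3, and the same except NHP2 with 0.1. The compared groups alone lost 7, those of EBNA1BP2, HEATR1, NOL10, NOP14, PES1, POLR1A and RRP1, and the fit without a filter on low counts lost that of RRP1. Set directly against low butyrate, 0 of the 49 were called by edgeR or by DESeq2, and 0 had an unadjusted p under 0.05, as 0.0% of all genes tested were called. The median log2 difference of medium from low was -0.04, ranging from -0.14 to 0.06. All comparisons of butyrate with palmitate share the palmitate libraries as their reference, so their counts are not separate evidence.

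With high butyrate most of the set was lower than with palmitate. Against palmitate, 41 of the 49 genes (83.7%) were lower, 2 were higher and 6 were not called, where 33.8% of all genes tested were lower and 37.7% higher. Among well expressed genes, 54.1% were lower and 27.9% higher. The median log2 change was -0.63 in the set, 0.06 over all genes and -0.25 at that level. At least 2-fold falls were called for 13 genes, against 13.5% of all genes and 17.1% at that level. All 3 high butyrate libraries lay under all 3 palmitate libraries for 40 genes, as for 33.5% of all genes and 52.7% of well expressed genes, and above them for 2, as for 38.6% and 27.4%. FBL, TBL3 and UTP23 were not called at any dose by this test. Some calls of lower genes at high butyrate depended on the processing: those of BOP1, DDX10, POLR1C, PWP2 and RRP12 were lost with library totals in place of TMM and on FPKM, tested with limma, those of POLR1C, PWP2 and RRP12 also with a minimum of 1 CPM, and those of NOP2 and UTP14A on FPKM.

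**Figure D2:**
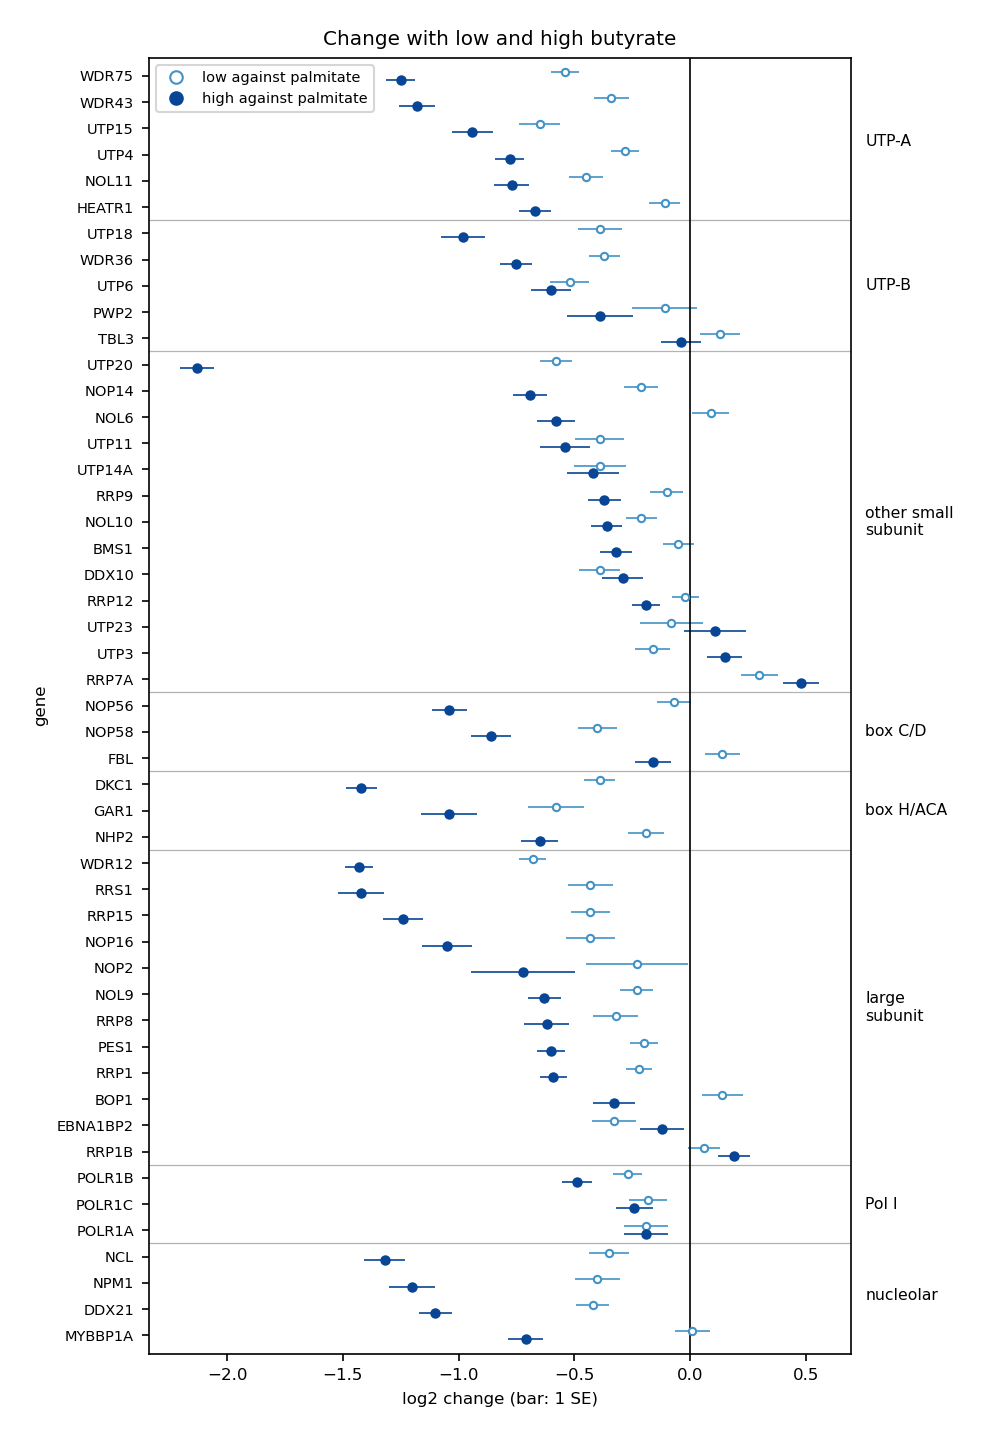
Log2 change of each of the 49 genes (rows, grouped by role) with low (open circles) and high butyrate (filled circles) against palmitate; bars are 1 SE. Filled circles lie left of 0 for 45 genes, from -2.13 for UTP20 on, and to the right of 0 for RRP7A, RRP1B, UTP3 and UTP23.

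Of the 3 RNA polymerase I subunits of the set, 2 were lower with high butyrate. This count and those of the other roles below stand beside 33.8% of all genes and 54.1% of well expressed genes lower. POLR1A encodes the largest subunit. POLR1A stood at 138, 147 and 141 CPM in the control libraries, 97.7, 149.6 and 130.5 with palmitate, 108, 111 and 113 with low, 107, 108 and 106 with medium and 109.8, 108 and 114 with high butyrate. Palmitate library 1 was below every other library, and the other palmitate libraries were above every butyrate library. High butyrate differed from palmitate by a log2 of -0.19 (SE 0.0951, adjusted p = 0.08), and by -0.35 (adjusted p = 1.82e-05) without palmitate library 1 and -0.23 (adjusted p = 0.00514) without a filter on low counts. At medium butyrate POLR1A was lower (log2 change -0.24, adjusted p = 0.0434), a call lost in 13 of the 15 fits that left out a library, each except palmitate 1 and high 1, at adjusted p from 0.0504 to 0.359. It was also lost with DESeq2's size factors (0.0551), a minimum of 1 CPM (0.0848), library totals (0.169), the compared groups alone (0.158) and FPKM (0.331 and 0.332 with pseudocounts of 1 and 0.1). POLR1B, the catalytic partner of POLR1A, fell from 71, 80.0 and 74.9 CPM with palmitate to 54.9, 51.3 and 54.7 with high butyrate (log2 change -0.49, SE 0.0645, adjusted p = 6.97e-07), with no overlap. POLR1C, which RNA polymerase I shares with RNA polymerase III, was lower with high butyrate (log2 change -0.24, adjusted p = 0.0134), but not without high library 3 (adjusted p = 0.0695), with a minimum of 1 CPM (0.0778), with library totals (0.293) or on FPKM (0.298). Against control it was not called (log2 change 0.03, adjusted p = 0.761).

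The 6 proteins of the UTP-A complex, the first block to bind the precursor in yeast, all fell with high butyrate, by log2 changes from -0.67 to -1.25. WDR75 had the largest fall of them. WDR75 stood at 93.6, 99.9 and 103 CPM in the control libraries, 107, 102 and 106 with palmitate, 69.2, 71.5 and 76.1 with low, 65.2, 70.5 and 73.2 with medium and 44, 44.9 and 43.8 with high butyrate. The 3 high libraries were below all others, the low and medium libraries lay between them and the rest, and control and palmitate overlapped. WDR75 fell 2.38-fold from palmitate (log2 change -1.25, SE 0.0628, adjusted p = 1.34e-13). WDR43 fell 2.27-fold (log2 change -1.18, SE 0.0779, adjusted p = 1.13e-11), from 248 ± 25.2 to 109 ± 2.68 CPM (SD, n = 3). UTP15, UTP4 and NOL11 fell 1.92-fold, 1.71-fold and 1.71-fold.

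HEATR1, also of UTP-A, is the counterpart of yeast Utp10. HEATR1 stood at 111, 105 and 104 CPM in the control libraries, 89.3, 106 and 96.7 with palmitate, 90.4, 92.2 and 89 with low, 86.6, 86 and 80.4 with medium and 60.9, 57.1 and 65.7 with high butyrate. It was not called with low butyrate (log2 change -0.11, SE 0.0687, adjusted p = 0.21), except without palmitate library 1 (0.0405), and fell with high butyrate (log2 change -0.67, SE 0.0693, adjusted p = 1.73e-08), whose libraries lay below all others. At medium butyrate it was lower (log2 change -0.21, adjusted p = 0.0147), but not without palmitate library 2 (0.0873) or medium library 3 (0.0649), with library totals (0.112), on FPKM (0.151 and 0.148) or with the compared groups alone (0.0718).

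Of the 5 proteins of the UTP-B complex, 4 were lower with high butyrate. UTP18 fell 1.97-fold (log2 change -0.98, SE 0.0958, adjusted p = 7.45e-09), WDR36 1.68-fold and UTP6 1.52-fold. PWP2 was lower with a log2 change of -0.39 (adjusted p = 0.0181), a call lost without palmitate library 2 (0.0965) or high library 3 (0.0854), with a minimum of 1 CPM (0.0548), with library totals (0.124) or on FPKM (0.209 and 0.217). TBL3 was not called (log2 change -0.04, SE 0.0863, adjusted p = 0.719), and at low butyrate it was called, as higher, only in the fit without palmitate library 2 (0.0490). Of TBL3's exonic bases 29.9% are shared with NOXO1 on the other strand, and the sources used here do not say whether counting used strand.

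Of the 13 other small subunit factors, 10 were lower with high butyrate and 1 was higher. UTP20 (ENSG00000120800), a very large scaffold protein of the processome, lies on chromosome 12, 101280109 to 101386616 on the plus strand of GRCh38. UTP20 stood at 118, 125 and 119.9 CPM in the control libraries, 109, 126 and 124 with palmitate, 79.8, 80.4 and 79.5 with low, 76.7, 69.1 and 71.5 with medium and 28.2, 25.1 and 29 with high butyrate. Control and palmitate overlapped, low and medium libraries lay below both without overlap, and high libraries lay far below those. UTP20 fell 4.37-fold from palmitate to high butyrate (log2 change -2.13, SE 0.0722, adjusted p = 2.41e-16), the largest change in the set. NOP14, NOL6 and UTP11 fell 1.62-fold, 1.50-fold and 1.45-fold, while BMS1, a GTPase, and DDX10, a helicase, fell 1.25-fold and 1.22-fold.

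RRP7A (ENSG00000189306, chromosome 22, 42509968 to 42519802, minus strand) went the other way. RRP7A stood at 28.3, 28.9 and 30.9 CPM in the control libraries, 26.9, 27.1 and 26.3 with palmitate, 32.1, 34.2 and 32.9 with low, 30.9, 35 and 34.3 with medium and 32.1, 40.3 and 39.6 with high butyrate. Every butyrate library was above every palmitate library, while the first high library overlapped with the low and medium groups. RRP7A rose 1.40-fold with high butyrate (log2 change 0.48, SE 0.0796, adjusted p = 1.48e-05). Against control the rise was 1.27-fold at high butyrate (log2 change 0.35, adjusted p = 0.000569) and was not called at low (log2 change 0.17, adjusted p = 0.0924). UTP3, the counterpart of yeast Sas10, stood at 44.8, 42.1 and 44.4 CPM in the control libraries, 54.6, 48.4 and 48.2 with palmitate, 42, 44.7 and 48.2 with low, 39.7, 41.9 and 47 with medium and 55.8, 59.4 and 53 with high butyrate. High libraries overlapped with palmitate but lay above all control, low and medium libraries. UTP3 was lower than with palmitate at medium butyrate (log2 change -0.23, SE 0.076, adjusted p = 0.0137), but this call did not hold in the fit without palmitate library 1 (0.0621) or those without a medium library, number 1 (0.0852) or 2 (0.05), nor with library totals or on FPKM. It was not called against palmitate at high butyrate (log2 change 0.15, SE 0.0754, adjusted p = 0.0736), except as higher without palmitate library 1 (0.0185) or high library 3 (0.0498), and as higher by DESeq2 (0.0182), with its size factors in edgeR (0.0219), with a minimum of 1 CPM (0.00768), with library totals (0.00143) and on FPKM (0.00216 and 0.00209). Its log2 change ran from 0.19 to 0.29 in these fits. UTP23 was not called either (log2 change 0.11, SE 0.134, adjusted p = 0.484).

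**Figure D3:**
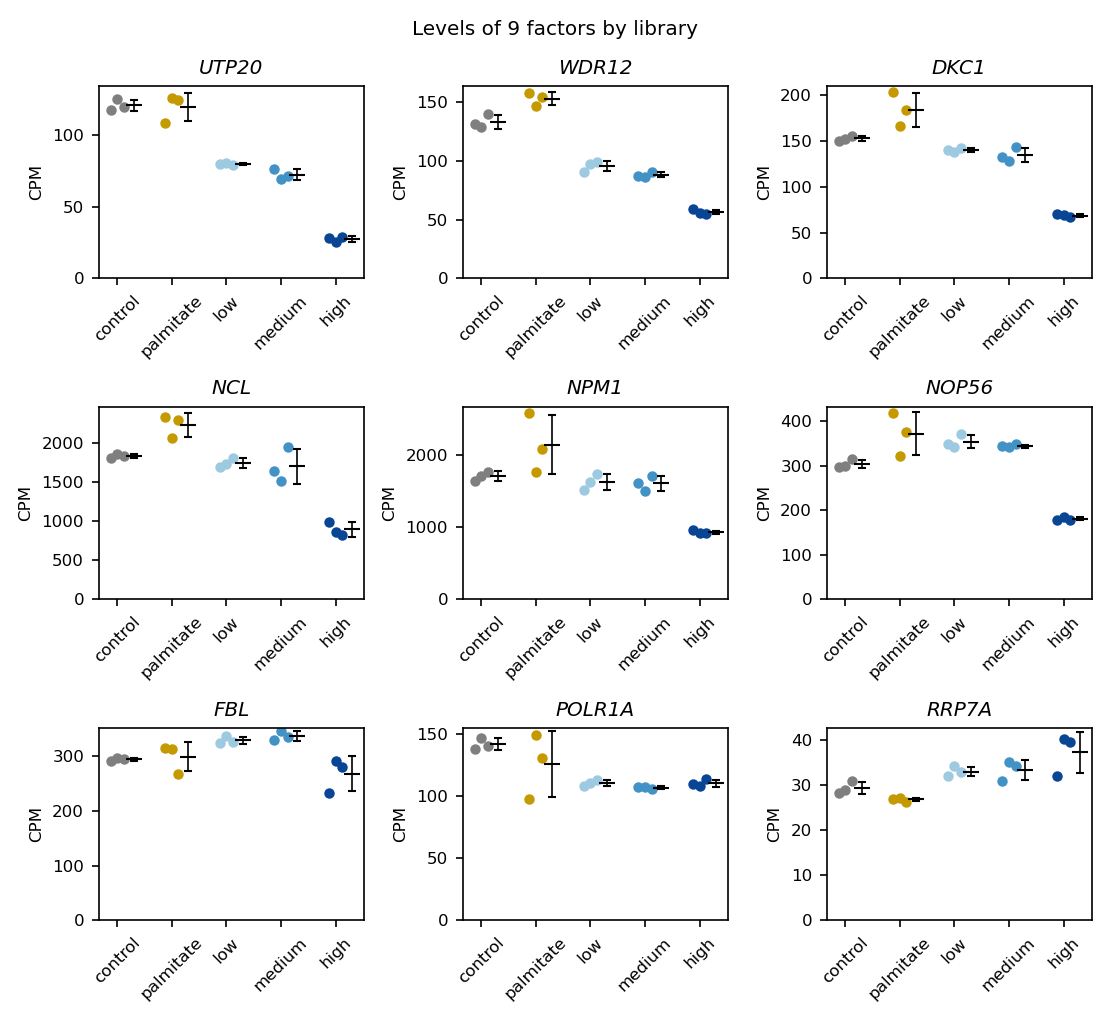
CPM of 9 genes in each library of the 5 groups (points), with the mean and SD of each group (bars beside the points), on axes from 0. UTP20, WDR12 and DKC1 step down at low and again at high butyrate, NOP56 is lowest in the high group, and POLR1A and FBL have palmitate and high libraries that overlap.

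Box C/D particles carry the methyltransferase fibrillarin, encoded by FBL, with NOP56 and NOP58 as core proteins. FBL stood at 291, 296 and 295 CPM in the control libraries, 316, 313 and 268 with palmitate, 325, 336 and 325 with low, 329, 346 and 335 with medium and 232, 292 and 279 with high butyrate. High library 1 was below every other library, and the other high libraries overlapped with palmitate library 3. FBL was not called with high butyrate against palmitate (log2 change -0.16, SE 0.0771, adjusted p = 0.0719), except without palmitate library 3 (log2 change -0.24, adjusted p = 0.0125) or high library 2 (log2 change -0.23, adjusted p = 0.0213), or without a filter on low counts (log2 change -0.20, adjusted p = 0.0175). At medium butyrate it was not called (log2 change 0.17, SE 0.0771, adjusted p = 0.0676), except as higher without palmitate library 1 (0.0267) or palmitate library 2 (0.0423), by DESeq2 (0.0391), with a minimum of 1 CPM (0.0287), with library totals (0.0249) and on FPKM (0.0453 and 0.0436). NOP56 stood at 298, 299 and 315 CPM in the control libraries, 418, 322 and 375 with palmitate, 349.5, 342 and 371 with low, 344, 341 and 348 with medium and 179, 185 and 179 with high butyrate. The high libraries were below all others and the low and medium libraries above all control libraries. NOP56 fell 2.05-fold from palmitate to high butyrate (log2 change -1.04, SE 0.0748, adjusted p = 5.12e-11) and was not called at low (log2 change -0.07, SE 0.0739, adjusted p = 0.467) or medium (log2 change -0.11, SE 0.0739, adjusted p = 0.223), except without palmitate library 2 (0.0408 at low and 0.0109 at medium). NOP58 was lower with low butyrate and fell 1.81-fold with high butyrate (log2 change -0.86, SE 0.0859, adjusted p = 1.03e-08), from 148, 115 and 137 to 74.8, 75.2 and 70.1 CPM, with no overlap.

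Box H/ACA particles carry dyskerin, encoded by DKC1, with GAR1 and NHP2. All 3 genes were lower with high butyrate. DKC1 (ENSG00000130826, chromosome X, 154762742 to 154777689, plus strand) stood at 140.1, 138 and 143 CPM with low, 133, 128 and 144 with medium and 69.9, 69.1 and 67.2 with high butyrate. The high libraries were below all others, and the low and medium libraries were below all control and palmitate libraries given above. DKC1 fell 2.68-fold from palmitate (log2 change -1.42, SE 0.0688, adjusted p = 6.89e-14). GAR1 fell 2.06-fold (log2 change -1.04, SE 0.121, adjusted p = 1.1e-07) and NHP2 1.57-fold (log2 change -0.65, SE 0.0792, adjusted p = 2.08e-07). NHP2 shares 27.4% of its exonic bases with RMND5B on the other strand.

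Of the 12 large subunit factors, 10 were lower with high butyrate, 1 was higher and EBNA1BP2 was not called (log2 change -0.12, SE 0.0953, adjusted p = 0.26), except without palmitate library 2 (0.0112). All 3 genes of the PeBoW complex were lower. WDR12 stood at 131, 129 and 140.2 CPM in the control libraries, 158, 147 and 155 with palmitate, 90.6, 97.4 and 99.5 with low, 87.5, 86.8 and 90.6 with medium and 58.8, 56.2 and 55.3 with high butyrate. Its 5 groups fell into 4 levels without overlap between palmitate, control, the pooled low and medium libraries, and high. WDR12 fell 2.70-fold with high butyrate (log2 change -1.43, SE 0.0605, adjusted p = 7.6e-15). PES1 fell 1.51-fold (log2 change -0.60, SE 0.0605, adjusted p = 1.27e-08), from 167, 155 and 161 to 108, 109 and 102 CPM. BOP1 fell 1.26-fold (log2 change -0.33, SE 0.0904, adjusted p = 0.00235) and stood at 73.3, 75.5 and 74.9 CPM in the control libraries, 71.8, 87.4 and 80.6 with palmitate, 91.8, 85.9 and 87.2 with low, 87.6, 94.5 and 84.9 with medium and 51.8, 71 and 67.2 with high butyrate. The call was lost with library totals (log2 change -0.20, adjusted p = 0.0872) and on FPKM (0.125 and 0.12). High libraries of BOP1 lay below all others, and its low and medium libraries lay above all control libraries and overlapped with palmitate.

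RRS1, which helps place the 5S particle in the large subunit, stood at 38.6, 39.7 and 40.1 CPM in the control libraries, 49.5, 46 and 45.5 with palmitate, 31, 37.3 and 36.4 with low, 28.3, 29.3 and 38.5 with medium and 19.1, 17.3 and 16.4 with high butyrate. All high libraries were below all others, and all palmitate libraries were above all others. RRS1 fell 2.67-fold (log2 change -1.42, SE 0.0996, adjusted p = 3.33e-11). RRP15 fell 2.37-fold and NOP16 2.08-fold. RRP8, a methyltransferase of large subunit RNA, fell 1.53-fold (log2 change -0.62, SE 0.0983, adjusted p = 9.44e-06), and NOL9, a polynucleotide kinase, 1.54-fold. NOP2 fell 1.65-fold (log2 change -0.72, SE 0.225, adjusted p = 0.00693), on the lowest counts of the set, and shares 54.4% of its exonic bases with a gene on the same strand.

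RRP1 and RRP1B, related proteins both named for yeast Rrp1, went in opposite directions. RRP1 stood at 56, 55.6 and 52.4 CPM with palmitate and 35.8, 36.5 and 36.8 with high butyrate, and fell 1.50-fold (log2 change -0.59, SE 0.0574, adjusted p = 7.38e-09). RRP1B stood at 129.8, 125 and 121 CPM in the control libraries, 114, 132 and 119.5 with palmitate, 118, 129 and 132 with low, 134, 121 and 129.8 with medium and 149.8, 133 and 135 with high butyrate. The high libraries lay above all control, palmitate and low libraries and overlapped with medium. RRP1B rose 1.14-fold (log2 change 0.19, SE 0.0697, adjusted p = 0.017). This call was lost without palmitate library 1 (0.0748), palmitate library 3 (0.0633) or high library 1 (0.181), without a filter on low counts (0.104) or with the compared groups alone (0.077), and RRP1B was not called against control (log2 change 0.15, adjusted p = 0.0570).

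The 4 abundant or regulatory nucleolar proteins all fell with high butyrate. NCL encodes nucleolin, which binds the precursor RNA and rDNA chromatin. NCL (ENSG00000115053, chromosome 2, 231453531 to 231483641, minus strand) stood at 1806, 1861 and 1839 CPM in the control libraries, 2336, 2057 and 2293 with palmitate, 1696, 1725 and 1810.2 with low, 1638, 1518 and 1943 with medium and 995, 868 and 819 with high butyrate. High libraries were below all others, palmitate libraries above all others, and control, low and medium overlapped. NCL fell 2.49-fold (log2 change -1.32, SE 0.0887, adjusted p = 1.6e-11). NPM1, the chaperone nucleophosmin, stood at 1631, 1711 and 1767 CPM in the control libraries, 2578, 1762 and 2079 with palmitate, 1514, 1624 and 1739 with low, 1612, 1497 and 1702 with medium and 957, 917 and 919.9 with high butyrate. Palmitate library 2 lay within the control range, the other palmitate libraries were above all others, and the high libraries were below all others. NPM1 fell 2.30-fold (log2 change -1.20, SE 0.0995, adjusted p = 5.18e-10), with the reservation that 45 pseudogenes carry its name and could share reads. DDX21, a helicase, fell 2.15-fold from 669, 590.1 and 665 to 322, 286 and 288 CPM (log2 change -1.10, SE 0.072, adjusted p = 9.78e-12), with no overlap. MYBBP1A, a regulator that binds RNA polymerase I, fell 1.63-fold (log2 change -0.71, SE 0.0754, adjusted p = 2.93e-08) and differed little from palmitate at low butyrate (log2 change 0.01, SE 0.0746, adjusted p = 0.925).

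Between medium and high butyrate most of the set was lower again. Set directly against medium butyrate, 33 of the 49 genes (67.3%) were lower and 1 was higher with high butyrate, where 28.7% of all genes tested were lower and 26.9% higher, and 45.4% and 26.0% among well expressed genes. The median log2 change was -0.38 in the set, 0.01 over all genes and -0.13 at that level. The largest falls were those of UTP20 (log2 change -1.40, SE 0.0715, adjusted p = 8.08e-13), DKC1 (log2 change -0.97, SE 0.0684, adjusted p = 1.14e-10), NCL (log2 change -0.93, SE 0.088, adjusted p = 1.2e-08) and NOP56 (log2 change -0.93, SE 0.0747, adjusted p = 9.74e-10). Each had all high libraries below all medium libraries. UTP3 was the gene that rose, 1.31-fold (log2 change 0.39, SE 0.0759, adjusted p = 0.000179). FBL, not called against palmitate, fell at this step (log2 change -0.33, SE 0.0772, adjusted p = 0.000995), and all its high libraries were below all medium libraries. The calls of POLR1B, RRP8, RRP9 and UTP15 at this step were each lost without at least 1 library (adjusted p from 0.0540 to 0.240), and RRP7A was called higher without high library 1 (0.00522). POLR1B and RRP8 were also not called by DESeq2 (0.108 and 0.098), with its size factors in edgeR (0.111 and 0.0909), with a minimum of 1 CPM (0.108 and 0.0837), with library totals (0.305 and 0.166) or on FPKM, and RRP8 not with the compared groups alone (0.0564). RRP9 and UTP15 were not called with library totals (0.0831 and 0.0653) or on FPKM. RRP7A was called higher by DESeq2 (0.0369), with its size factors (0.0388), with a minimum of 1 CPM (0.0304), with library totals (0.027) and on FPKM (0.0489 and 0.0493).

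The comparisons of low with palmitate and of high with medium share no library, but they come from the same fit and share each gene's estimate of spread. Lower in both were 24 genes, which is 24 of the 30 in the first and 24 of the 33 in the second. They are 24 of the 49 in the set, where 14.0% of all genes and 26.7% of well expressed genes were lower in both. Among them were NCL, NPM1, DKC1, UTP20, WDR12 and PES1. A further 9 genes were not called at the first step and fell at the step from medium to high, namely BMS1, BOP1, FBL, HEATR1, MYBBP1A, NHP2, NOL6, NOP56 and RRP9. The remaining 6 of the 30, DDX10, EBNA1BP2, NOL10, UTP11, UTP14A and UTP6, were lower at the first step and were not called at the step from medium to high. NOL10 was close to the threshold there (log2 change -0.16, adjusted p = 0.0504), and was called lower in 7 of the 15 fits that left out a library and with the compared groups alone (0.0305).

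**Figure D4:**
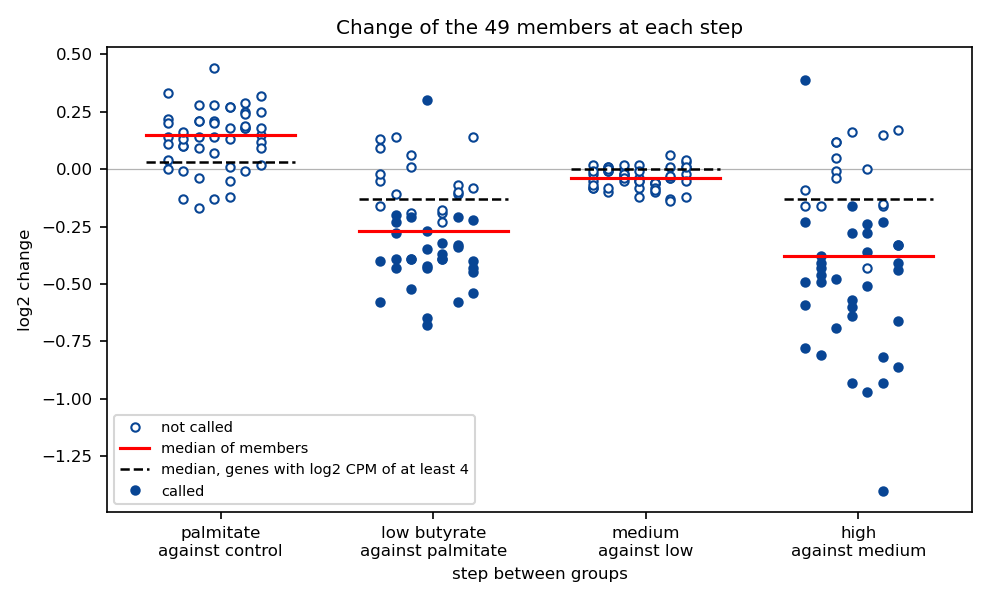
Log2 change of the 49 genes (points) at 4 steps between groups; filled points passed the test, the red line is the median of the 49 genes and the dashed line that of well expressed genes. Medians are 0.15, -0.27, -0.04 and -0.38, and no point is filled for palmitate against control or medium against low.

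The choice of reference mattered at the lower doses. Against control in place of palmitate, 15 of the 49 genes (30.6%) were lower and 2 higher with low butyrate, where 20.7% of all genes and 37.6% of well expressed genes were lower and 23.7% and 19.0% higher. With medium butyrate 19 (38.8%) were lower and 2 higher, where 21.7% and 39.2% were lower and 25.2% and 20.0% higher. Both shares lay above that of all genes and at or below that of genes at the same level. These comparisons share the control libraries. Butyrate libraries differ from control in both palmitate and butyrate, which cannot be told apart here. With high butyrate 37 (75.5%) were lower and 2 higher, where 33.1% and 51.9% were lower and 36.9% and 28.4% higher, with a median log2 change of -0.54. UTP20 fell from control by 0.60 on the log2 scale at low and by 2.14 at high butyrate (adjusted p = 3.99e-07 and 2.64e-16), and WDR12 by 0.48 and 1.23 (1.13e-06 and 8.93e-14). NCL was not called at low (log2 change -0.07, adjusted p = 0.532) and fell 2.05-fold at high (log2 change -1.04, adjusted p = 8.24e-10). NOP56 and BOP1 were higher than control at low butyrate (log2 changes 0.22 and 0.24, adjusted p = 0.0184 and 0.0326).

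A straight line was taken over the 4 palmitate groups, at 0, 0.5, 1 and 1.5 mM. Its slope was called below 0 for 41 genes and above 0 for 2, RRP7A and RRP1B. The estimate itself was below 0 for 45 genes and above 0 for 4. Of all genes tested, 33.3% were called below 0 and 37.1% above it, and 53.6% and 27.5% of well expressed genes. The median slope was -0.38 log2 per mM, against 0.04 over all genes and -0.15 among well expressed genes. UTP20 had the steepest (-1.30 log2 per mM, SE 0.0453, adjusted p = 3.89e-16), followed by WDR12 and RRS1, both at -0.88. RRP7A had a slope of 0.29 (SE 0.0503, adjusted p = 2.55e-05). The positive slope of RRP1B (0.12, adjusted p = 0.0196) was lost without palmitate library 1 (0.0755), palmitate library 3 (0.0659) or high library 1 (0.182).

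Other genes of the pathway were taken from lists written beside the 49 and set against the same background at high butyrate, 33.8% of all genes and 54.1% of well expressed genes lower. Of 12 other genes of the RNA polymerase I machinery, 10 were lower and 1 higher than with palmitate (median log2 change -0.95). UBTF, which bends rDNA for initiation, fell 4.49-fold from 138 ± 3.91 to 30.8 ± 1.69 CPM (log2 change -2.17, adjusted p = 2.71e-15), and POLR1F, a subunit, fell 2.20-fold. Of 25 other small subunit factors, 19 were lower and 1 higher (median -0.57), with UTP25 2.91-fold and TSR1 2.66-fold lower. Of 38 other large subunit factors, 32 were lower and 1 higher (median -0.52), with MRTO4 3.31-fold and LAS1L 2.58-fold lower. Of 12 genes of the RNA exosome, which trims precursor RNA, 10 were lower (median -0.92), and EXOSC8 fell 4.50-fold and EXOSC10 2.61-fold. Of 11 genes for assembly of the box particles, 7 were lower and 2 higher (median -0.35), with NAF1 2.12-fold and NOP10 1.61-fold lower. That share, 63.6%, is close to the 54.1% of well expressed genes, while those of the other 4 lists ran from 76% to 84.2%.

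The proteins of the finished ribosome were counted separately. Of 79 cytosolic ribosomal protein genes, 8 were higher and 7 lower at low butyrate, 17 and 5 at medium, and 7 and 34 at high butyrate against palmitate, with a median log2 change of -0.17 at high. The share lower at high, 43%, lay between the 33.8% of all genes and the 54.1% of well expressed genes given above. At low, 8.86% were lower, under the 24.0% of all and 43.6% of well expressed genes. At medium, 6.33% were lower, under 24.4% and 44.6%. Called higher were 10.1% at low, 21.5% at medium and 8.86% at high. Among all genes 25.9%, 27.1% and 37.7% were higher, and among well expressed genes 19.2%, 20.3% and 27.9%. Between high and medium, 48 (60.8%) were lower and 0 higher (median -0.28), against 28.7% of all and 45.4% of well expressed genes lower. RPL27A fell 1.66-fold and RPL22 1.63-fold with high butyrate, where log2 changes of the 79 genes ran from -0.88 to 1.10. The difference between these genes and the 49 factors was not tested.

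MYC was higher with butyrate. MYC stood at 145, 142 and 147 CPM in the control libraries, 145, 168 and 165 with palmitate, 222, 223 and 247 with low, 213, 210.4 and 259 with medium and 236, 225 and 217 with high butyrate. Every butyrate library was above every control and palmitate library. MYC rose 1.45-fold with low butyrate (log2 change 0.54, adjusted p = 7.99e-06) and 1.42-fold with high butyrate (log2 change 0.50, adjusted p = 6.17e-06), with no call between high and medium (log2 change -0.01, adjusted p = 0.931). Of 5 growth regulators of ribosome synthesis, MYC among them, 1 was higher and 1 lower at low and at medium butyrate, and 2 were higher and 1 lower at high. At low, medium and high butyrate 25.9%, 27.1% and 37.7% of all genes were higher, and 19.2%, 20.3% and 27.9% of well expressed genes. At high butyrate the log2 changes of the 5 ran from -0.53 to 0.62. MAX, the partner of MYC, was not called at low (log2 change -0.02, adjusted p = 0.863) or medium butyrate (log2 change -0.04, adjusted p = 0.732) and rose 1.54-fold at high butyrate (log2 change 0.62, adjusted p = 4.13e-07). Genes with the E-box in the promoter were lower with low butyrate in 8 of 14 (median log2 change -0.22), and those without it in 19 of 28 (median -0.36). With medium butyrate these counts were 8 of 14 (median -0.26) and 24 of 28 (median -0.39), and with high butyrate 12 of 14 (median -0.64) and 24 of 28 (median -0.66). Among well expressed genes 43.6%, 44.6% and 54.1% were lower at these doses, and 24.0%, 24.4% and 33.8% among all genes. The difference between promoters with and without the E-box was not tested.

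Markers of other processes and cell types were measured at high butyrate beside the set, where 33.8% of all genes were lower and 37.7% higher, and 54.1% and 27.9% of well expressed genes. All 15 of 15 proliferation markers were lower than with palmitate (median log2 change -1.89), and their summed CPM ranged from 4731 to 4755 in control, 4922 to 5171 with palmitate and 1894 to 2061 with high butyrate. CCNA2, a cyclin, fell 8.98-fold and TYMS, which makes thymidylate, 8.91-fold. Transcripts of mitochondrial protein-coding genes took 5.82% to 6.12% of counts in control, 5.97% to 7.13% with palmitate and 7.45% to 9.53% with high butyrate. With low butyrate they took 6.27% to 7.59%, overlapping with high, and with medium 6.05% to 7.07%. Of 10 hepatic markers, 6 were lower and 3 higher, shares near those of well expressed genes. AFP fell 2.39-fold and ALB 2.16-fold, while APOA1 and APOB, encoding apolipoproteins, rose from 730.3 to 1612.1 FPKM and from 329.6 to 629.4 FPKM. The summed CPM of the 10 markers was 26468 to 28670.3 with palmitate and 23577 to 26158 with high butyrate. Of 10 leukocyte, endothelial and stromal markers, 5 had enough counts to be tested and 4 were higher, COL1A1 reaching 1.96 FPKM and PECAM1 1.51 FPKM, and their summed CPM was 4.37 to 5.72 with palmitate and 27.9 to 32.8 with high butyrate. The part of these measures in the fall of the set was not tested.

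Some of the 49 genes hold genes of small nucleolar RNAs within them. By GENCODE 29, 6 of them host 18 such genes: NOP56 hosts 5, NOP58 4, NCL and WDR43 3 each, DKC1 2 and NOL11 1. All 6 hosts were lower with high butyrate against palmitate, by log2 changes from -0.77 to -1.42 (median -1.11), and all 6 were lower at the step from medium to high (median -0.87). Of the 43 others, 35 were lower against palmitate (median -0.60) and 27 between medium and high (median -0.33). In all genes 33.8% and 28.7% were lower in these comparisons, and 54.1% and 45.4% in well expressed genes. The difference between hosts and the others was not tested. The libraries were made from poly(A) RNA, so the small RNAs themselves were not measured. The 49 genes lie on 18 chromosomes.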

How the data were processed

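RNA from 15 HepG2 cultures was sequenced as poly(A) libraries, paired-end. The deposited table holds raw counts of fragments per gene, and the authors also deposited FPKM values for the same genes and libraries. The submitters' processing notes name FastQC, HISAT2, featureCounts, DESeq2 and GRCh38. No tool version, annotation release or strand setting is given in the sources used here, so reads of overlapping genes may be shared.

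Counts were tested with edgeR 4.0.16 (R 4.3.3): TMM scaling, filterByExpr, which kept 20309 of 39133 genes, and a quasi-likelihood test in 1 fit of all 15 libraries, without a replicate block. The biological coefficient of variation was 8.88%. P-values were adjusted by Benjamini-Hochberg over all genes tested, and "called" means an adjusted p under 0.05. An SE is the absolute log2 change over the square root of F. CPM are scaled by TMM, and values per length are the deposited FPKM. TMM assumes that most genes do not change, while with high butyrate 37.7% of all genes were called higher and 33.8% lower than with palmitate. The median log2 change of all genes there was 0.06 after this scaling, so it cannot test the assumption. Total counts of 35349827 to 61086976 per library put at least 75 counts behind each value of the 49 genes. The fit was tested on simulated data in which a small part of the genes changed, equally up and down, in the high butyrate group. That test does not cover changes as broad as those measured here.

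The 49 genes, their roles and the other lists were chosen with earlier results of these data known, so no p adjusted over a list is given. Genes were named with values by rule: the largest falls and rises with high butyrate, the largest changes between high and medium, genes against the main direction, the 3 of smallest adjusted p with palmitate, and a panel of role representatives. Of other genes, MYC was named and, per list, up to 2 called genes of smallest adjusted p with high butyrate against palmitate. Such genes do not stand for the range of their list. WDR43, UTP15, PWP2, TBL3 and other genes outside this rule were chosen after their values were seen. Replicate numbers did not pair the libraries. Alternatives were DESeq2 1.42.0, limma 3.58.1 on log2(FPKM + 1) and log2(FPKM + 0.1), other scalings, filters and thresholds, fits of the compared groups alone, a replicate block, control as reference, and leaving out each library. Gene positions are from GENCODE 29 (GRCh38). Python 3.11.15, pandas 2.3.3 and matplotlib 3.10.9 were used for summaries and figures.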

Additional observations from a re-analysis of the deposited data

How the results depend on the processing

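Counts of lower genes with butyrate against palmitate, between high and medium, and for the slope stayed within 1.5 times under all alternatives except control as reference, which left 15 lower and 2 higher at low and 19 lower and 2 higher at medium butyrate. With palmitate against control, 7 were higher with DESeq2 and 8 without a filter on low counts, and leaving out a library gave 0 to 14 higher and 0 to 1 lower. The few higher genes moved by small numbers: at medium butyrate 2 with DESeq2, library totals, at least 1 CPM in 3 libraries and both FPKM pseudocounts; at high butyrate and for the slope 1 at an adjusted p under 0.01 and 1 without a filter, and 3 with library totals, at least 1 CPM and both FPKM pseudocounts; and at high butyrate 3 with DESeq2 and its size factors and 1 with only the groups compared. Between high and medium, 2 were higher with DESeq2, 2 with its size factors in edgeR, 5 with library totals, 3 with at least 1 CPM and 4 with either FPKM pseudocount. Leaving out a library gave 1 to 3 higher at high butyrate (3 without high library 3) and 1 to 2 at low, at medium, between high and medium and for the slope. With control as reference, estimates were above 0 for 16, 14 and 6 of the 49 at low, medium and high butyrate, against 7, 6 and 4 with palmitate as reference. Among genes called with either reference the sign turned for NOP16 at low (0.01), NOP56 at low (0.22), RRP1 at medium (0.00) and POLR1C at medium and high butyrate (0.03 at both). Library totals in place of TMM moved the median of all genes at high butyrate from 0.06 to 0.19, and that of the 49 genes from -0.63 to -0.49. The cause of these shifts was not tested.

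The same replicate number did not pair libraries: the correlation of deviations from the group mean ran from -0.0598 to 0.0522 over 30 same-numbered pairs, and 6 of 15 libraries correlated best with their own number. With the replicate block, 31, 36, 43, 34 and 43 genes were called at low, medium and high butyrate, between high and medium, and for the slope. Depth limits NOP2 most, with 75 to 185 counts per library.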
